A study of Homo sapiens with 6 samples.

Results

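Interferon-stimulated genes outside the OAS family were examined in cells labelled MB231 in which PAK5, a p21-activated serine/threonine kinase, was to be knocked down. The 41 genes were taken by symbol from a list, and each of the 41 was found once among the 58735 genes of the deposited table. The 6 libraries formed 2 groups, 3 labelled shPAK5 with the genotype PAK5 knockdown and 3 labelled shNC with the genotype WT. All 6 share 1 cell label, read here as the breast cancer line MDA-MB-231. No interferon or other agent was named for either group, and whether the cells were pools or single clones, and how many hairpins were used, is not given in the sources used here. Values are FPKM, which scale the fragments of a gene by its exon length and by a scaling factor of the library. That length counts all annotated exons, and among the members it ran from 865 bases (IFI6) to 13047 bases (MX2). Where a transcript uses only part of these exons its FPKM is lowered, so levels of different genes compare only roughly. Nothing in the labels says that replicates came from separate cultures, so the p-values below measure only the spread between these libraries.

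Type I interferon binds a receptor made of IFNAR1 and IFNAR2, whose kinases JAK1 and TYK2 phosphorylate STAT2, among other substrates. STAT2 and IRF9 then act in the complex ISGF3, which binds the interferon-stimulated response element (ISRE) in the promoters of its target genes, while the gamma-activated site (GAS) serves the response to interferon gamma. The induced proteins sense foreign nucleic acid, restrict viruses at entry, translation or budding, or feed back on the pathway, and tumour cells can express part of this set without added interferon.

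Because the pathway acts through these promoter elements, the promoters were read first. RefSeq promoter windows of build GRCh38.p14, from 250 bases before to 50 bases after the start of a gene, were matched to 33 of the 41 members, with DDX58 found under its newer symbol RIGI. TRIM22, USP18, IFIT2, IRF7, IFNAR2, GBP2, IFITM2 and MX2 were not matched. The ISRE core, GAAA, any 2 bases and GAAA again, searched on both strands, was present in 22 of these 33 (66.7%), against 4.38% of all 27305 genes in the promoter table. The GAS core TTCNNNGAA, which reads the same on both strands, was present in 10 of the 33 (30.3%), against 9.38% of all genes, and the letters of the 2 cores can overlap. An ISRE core was held by 16 of 24 members averaging 1 FPKM or more across the libraries and by 6 of 9 members below it, the same share. The members were chosen as interferon-stimulated genes, so a higher share of these cores comes with that choice and says nothing of the knockdown. A match describes letters only.

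The stretches below show the matched cores of 4 members above 1 FPKM in these cells and of 3 below it, so that both kinds can be read side by side. Each runs 5′ to 3′ on the strand of the gene, lies upstream of its start in GRCh38.p14, and has the ISRE cores, in either orientation, in capitals. Merged capitals mark overlapping cores.
BST2, chr19:17405725-17405780 (- strand): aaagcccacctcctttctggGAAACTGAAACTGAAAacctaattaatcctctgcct
ISG15, chr1:1013364-1013419 (+ strand): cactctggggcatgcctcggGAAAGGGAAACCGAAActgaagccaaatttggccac
IFI6, chr1:27672256-27672368 (- strand): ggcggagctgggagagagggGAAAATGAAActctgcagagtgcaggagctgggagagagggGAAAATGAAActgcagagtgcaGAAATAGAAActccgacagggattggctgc
IFIT1, chr10:89392487-89392549 (+ strand): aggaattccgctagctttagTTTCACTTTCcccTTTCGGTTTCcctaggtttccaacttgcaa
IFI44L, chr1:78620264-78620404 (+ strand): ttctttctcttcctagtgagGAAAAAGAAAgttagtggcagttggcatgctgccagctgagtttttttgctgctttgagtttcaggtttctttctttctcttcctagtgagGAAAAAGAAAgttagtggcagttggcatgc
HERC5, chr4:88456974-88457074 (+ strand): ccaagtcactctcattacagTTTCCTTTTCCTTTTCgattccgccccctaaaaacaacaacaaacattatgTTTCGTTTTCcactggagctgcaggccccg
EPSTI1, chr13:42992262-42992311 (- strand): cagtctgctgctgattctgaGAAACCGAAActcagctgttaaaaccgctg
BST2, at a mean of 191 FPKM over the 6 libraries, and HERC5, at 0.371 FPKM, both carry overlapping cores, in opposite orientations. IFI44L, at 0.0762 FPKM, holds the same 10-letter core at both of its matches, and IFI6, at 62.9 FPKM, holds 3 separate ones. EPSTI1, at 0.329 FPKM, holds 1.

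**Figure D1:**
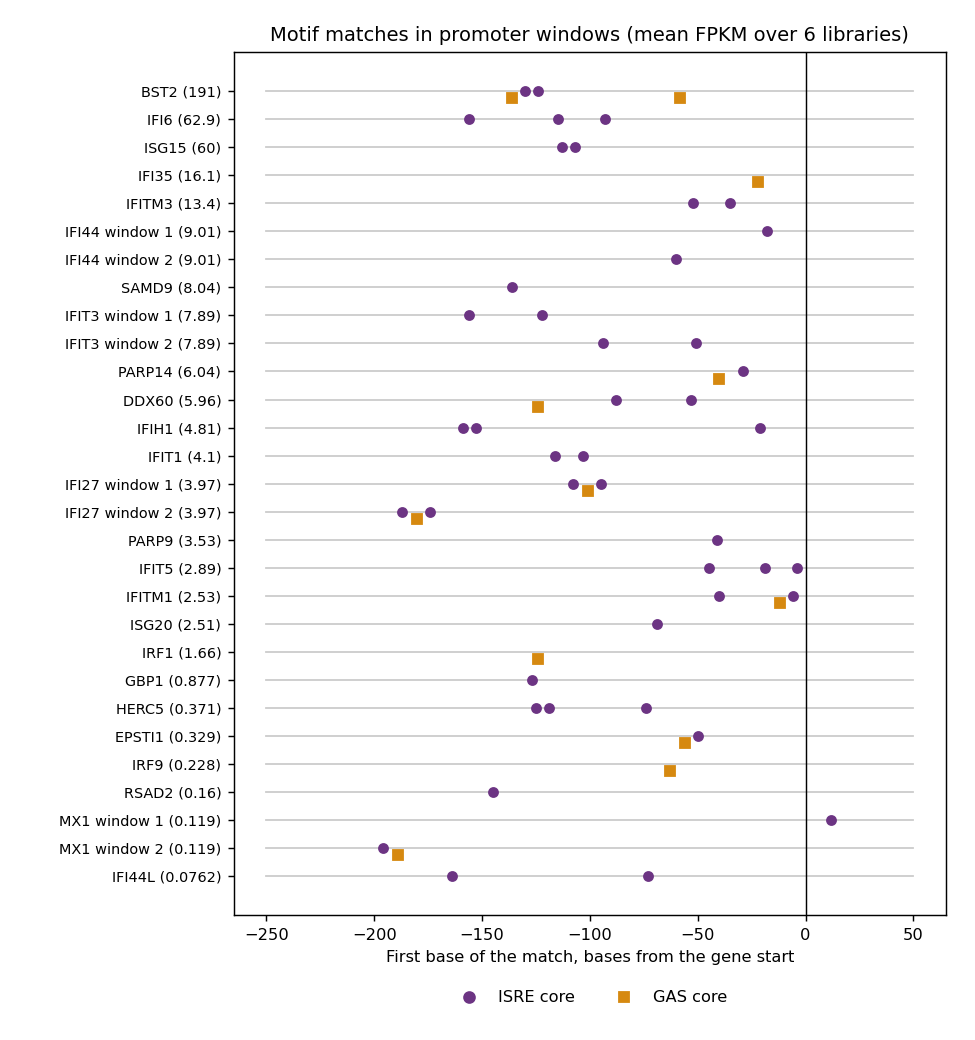
Positions of ISRE cores (circles) and GAS cores (squares) in the RefSeq promoter windows with at least 1 match, with distance in bases from the gene start on the x axis and 1 window per row, ordered by the mean FPKM over the 6 libraries given in brackets. ISRE cores appear in abundant genes such as BST2 at 191 FPKM and in scarce ones such as IFI44L at 0.0762 FPKM.

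The reads recovered from the values came to 15085168 to 18146091 per library. PAK5 had 0 reads in each of the 6 libraries, which allows up to 3 reads or 0.0403 FPKM in a single library by counting error, so the knockdown could not be checked and the groups are called by their labels. Of 8 genes listed here as high in the labelled line, 5 reached 1 FPKM (VIM, CD44, CAV1, AXL and MMP14) and 3 did not (FN1, SPARC and COL6A2). The list was not checked gene by gene against a profile of that line. Of 8 listed here as low or absent in it, 4 lay below 1 FPKM (ESR1, PGR, KRT20 and CDX2) and 4 did not (EPCAM, CDKN2A, ERBB2 and CDH1). The markers as listed thus went with the label in part and against it in part. The limit of 1 FPKM applies to RNA, so ERBB2 above it does not speak against a low protein level. VIM averaged 164 ± 3.09 FPKM in shPAK5 and 149 ± 10.2 FPKM in shNC, but FN1 was at 0.0863 ± 0.0223 FPKM in shPAK5 and 0.0319 ± 0.0201 FPKM in shNC and COL6A2 had 0 reads in all 6 libraries. EPCAM, low in that line, averaged 128 ± 2.72 FPKM in shPAK5 and 109 ± 7.69 FPKM in shNC, and CDKN2A, deleted in it, 30.8 ± 0.547 FPKM in shPAK5 and 33.4 ± 1.03 FPKM in shNC. A gene deleted in a line would not give such a level, so the cells are called here by their label only. The 9 markers of immune cells summed to 0.962 to 1.57 FPKM in shPAK5 libraries and 0.654 to 1.04 FPKM in shNC libraries, with CD3E, NCAM1 and KLRD1 at 0 reads throughout, and their part in the results below was not tested. The 9 markers of fibroblasts and endothelium summed to 114 to 115 FPKM in shPAK5 libraries and 102 to 125 FPKM in shNC libraries, nearly all of it LUM, while COL1A2 had 0 reads. By chi-square over all genes compared, shNC replicate 1 stood apart, at 9.31 and 5.36 per degree of freedom from replicates 2 and 3. Those 2 lay at 3.22 from each other. On the first principal component shNC replicate 2 lay farthest out at 16.2, with replicate 3 at 7.31 and replicate 1 at -3.39. The 2 measures did not single out the same library. In limma across 11237 genes, 13 passed an adjusted p of 0.05 with all libraries and 937 without shNC replicate 1. Without it IFNAR1 was the only member called, and the ranges of the other changes with a library left out stand with the effects of processing.

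None of the members tested passed between shPAK5 and shNC libraries when all 6 libraries were used, and only IFNAR1 did when shNC replicate 1 was left out. The estimated changes, shPAK5 minus shNC, lay between -0.18 (IFITM1) and 0.27 (IFIT5) on the log2 scale. Of the 41 members, 29 reached a mean of 1 FPKM and were tested, and none passed in limma on log2(FPKM + 1), against 0.116% of all tested genes. An unadjusted p under 0.05 was found for 2 of the 29 in limma, IFIT5 and IFITM2, against 17% of all tested genes, and for 3 in limma-voom on the recovered reads, the same 2 and IFNAR1, against 19.2%. limma-voom called none of the members at an adjusted p of 0.05, against 1.13% of all tested genes. The tested members had 14 positive and 15 negative changes. Their median was -0.011 on the log2 scale, beside 0.0038 for all tested genes, and the median size of the change was 0.069 beside 0.080. All libraries of 1 group lay beyond all of the other for 5 of the 29, against 23.1% of all tested genes. In shPAK5, 2 of these were higher (IFIT5 and IFIH1), against 12.6% of all, and 3 lower (IFITM1, IFITM2 and IFI27), against 10.5%. In these bulk libraries fewer expressing cells and less RNA per cell cannot be told apart.

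A missed threshold does not show equal levels, so the intervals bound what was seen. In limma on log2(FPKM + 1), all 29 tested members had a 95% interval inside 1.5-fold in either direction, as did 95.2% of all tested genes, with bounds from 0.765-fold to 1.41-fold. That scale understates the change of low genes. In limma-voom, which carries no pseudocount of 1 FPKM, 27 intervals stayed inside 1.5-fold, and those of IFIT5 and IFITM1 did not, with outer bounds of 1.55-fold and 0.613-fold.

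**Figure D2:**
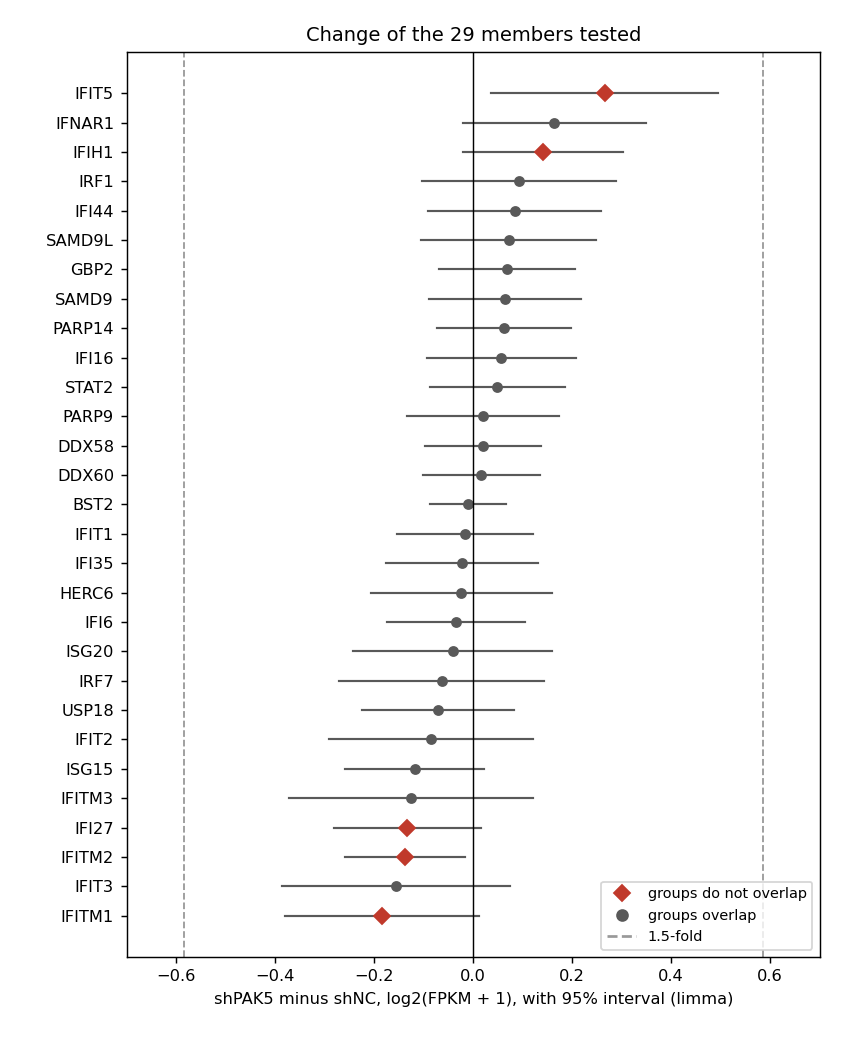
Change of each of the 29 tested members, shPAK5 minus shNC on the log2(FPKM + 1) scale (x axis), with the limma 95% interval as a line. Diamonds mark the 5 members whose groups do not overlap, dashed lines mark 1.5-fold, and every interval lies between them, with changes from -0.18 for IFITM1 to 0.27 for IFIT5.

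Levels covered a wide range, and members near 0 stood beside abundant ones of the same pathway. 7 of the 41 averaged at least 10 FPKM over the 6 libraries, 22 lay between 1 and 10 FPKM, and 12 lay below 1 FPKM. The 70.7% at or above 1 FPKM compares with 50.1% of the 19951 protein-coding genes. GBP1, at a mean of 0.877 FPKM over the 6 libraries, lay just under the limit for testing, and IRF1, at 1.66 FPKM, just above it. The highest 4 were BST2, IFITM2, IFI6 and ISG15, at percentiles 99.3, 97.7, 97.1 and 97 of protein-coding genes. In both groups the library values of IFI6 and ISG15 overlapped each other, whereas those of BST2 and IFITM2 overlapped no other member.

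**Figure D3:**
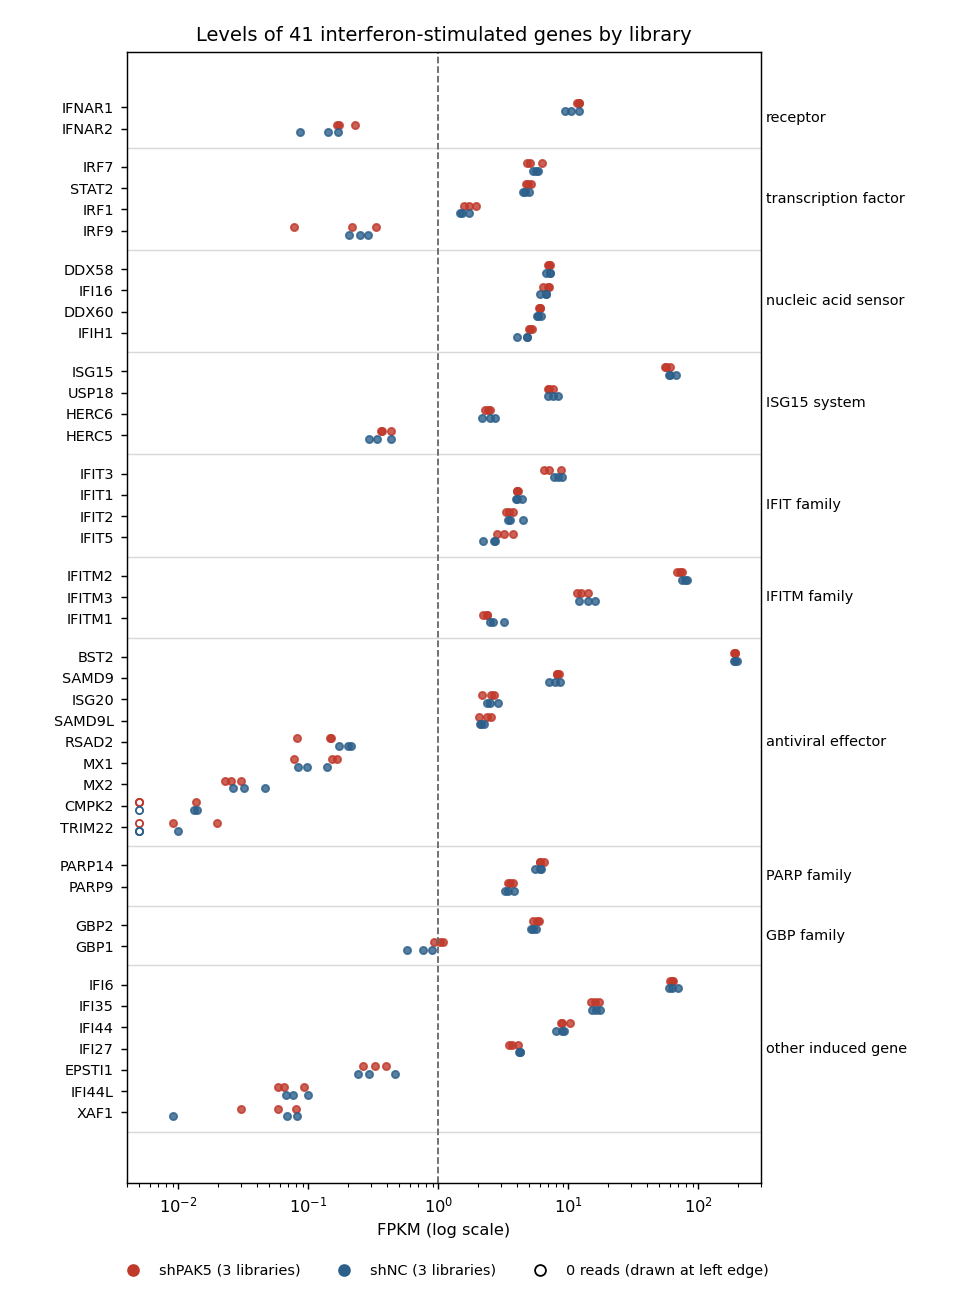
FPKM of all 41 members in each library on a log axis, grouped by role, with the 3 shPAK5 libraries drawn above the 3 shNC libraries of each gene, open circles for 0 reads and a dashed line at the 1 FPKM limit for testing. BST2 lies near 191 FPKM, whereas RSAD2, MX1, MX2, CMPK2 and TRIM22 lie below 1 FPKM in every library.

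The receptor chains were unequal in level. IFNAR1, the chain that signals through TYK2 and lies on chromosome 21 from 33324477 to 33359862 (GRCh38), stood at 12.1, 11.6 and 12.1 FPKM in shPAK5 replicates 1 to 3, against 12, 10.4 and 9.43 FPKM in shNC replicates 1 to 3. The shPAK5 libraries sat close together, while shNC replicate 1 lay among them and the other 2 shNC libraries lay below. The means were 12 ± 0.274 FPKM in shPAK5 and 10.6 ± 1.32 FPKM in shNC (SD, n = 3 each), and the change of 0.16 ± 0.080 (SE) did not pass (limma adjusted p = 0.342). Without shNC replicate 1 the change was 0.25 ± 0.053 (SE) and passed (limma adjusted p = 0.0424), as it did for 5.53% of all tested genes in that direction and 8.34% in either direction. The markers VIM, CD44, EPCAM and CDH1 were also called higher in that fit, with changes of 0.20, 0.17, 0.28 and 0.30, and their part in the IFNAR1 value was not tested. IFNAR1 was the only tested member called there, and 6 members had an unadjusted p under 0.05 there, against 30.8% of all tested genes.

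IFNAR2, the chain that binds interferon most tightly, had only 7 to 19 reads per library, with 44 reads over the 3 shPAK5 libraries and 31 over the 3 shNC libraries, and levels of 0.166 to 0.227 FPKM in shPAK5 and 0.0865 to 0.169 FPKM in shNC. These groups overlapped. In GENCODE 29, 83.2% of its 4614 exonic bases lie in exons of other genes, 44.2% on the same strand, the largest partner being the gene AP000295.1, which had 0 reads in all 6 libraries. How the authors assigned reads that fit more than 1 gene is not given in the sources used here, so this low value cannot be read as the level of the IFNAR2 transcript.

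Among the transcription factors, STAT2, the subunit of ISGF3 that brings its activation domain, stood at 4.74, 4.85 and 5.13 FPKM in shPAK5, against 4.51, 4.99 and 4.64 FPKM in shNC, with overlapping groups. IRF7, which drives interferon genes once phosphorylated, stood at 6.29, 5.06 and 4.79 FPKM in shPAK5, against 5.38, 5.87 and 5.66 FPKM in shNC, and shPAK5 replicate 1 alone lay above all shNC libraries while the other 2 lay below them. IRF1, a factor best known from the response to interferon gamma, stood at 1.72, 1.95 and 1.56 FPKM in shPAK5, against 1.47, 1.53 and 1.72 FPKM in shNC. None of the 3 passed, with changes of 0.049 ± 0.059 (SE), -0.064 ± 0.089 (SE) and 0.093 ± 0.085 (SE) (limma adjusted p = 0.702, 0.741 and 0.60). IRF9, the DNA-binding subunit of ISGF3, had 5 to 19 reads per library and levels of 0.0779 to 0.332 FPKM in shPAK5 and 0.206 to 0.285 FPKM in shNC. Here too 48.4% of the exonic bases are shared, with AL136295.5 on the same strand, which had 29 reads over the 6 libraries, so the same limit holds for IRF9. IRF1 shares 22.0% of its exonic bases with C5orf56 on the other strand, and the strand setting of the counting is not known here.

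The 4 sensors of foreign nucleic acid lay between 4.04 and 7.25 FPKM in all libraries, and none passed. IFIH1, which encodes the sensor of long double-stranded RNA MDA5, stood at 5.02, 4.96 and 5.28 FPKM in shPAK5 replicates 1 to 3, against 4.77, 4.04 and 4.78 FPKM in shNC replicates 1 to 3. Every shPAK5 library exceeded every shNC library, though the gap to shNC replicates 1 and 3 was small. The means were 5.09 ± 0.170 FPKM in shPAK5 and 4.53 ± 0.426 FPKM in shNC (SD, n = 3 each) and the change of 0.14 ± 0.070 (SE), with a 95% interval of -0.020 to 0.30, did not pass (limma adjusted p = 0.347). DDX58, which encodes RIG-I, the sensor of short RNA with 5′ triphosphate, stood at 7.25, 6.98 and 7.09 FPKM in shPAK5, against 7.15, 6.68 and 7.17 FPKM in shNC. DDX60, a helicase described as a helper of RIG-I, stood at 5.99, 6.05 and 5.95 FPKM in shPAK5, against 6.19, 5.74 and 5.83 FPKM in shNC, and IFI16, a sensor of DNA, at 6.33, 7.01 and 7.03 FPKM in shPAK5, against 6.72, 6.0 and 6.76 FPKM in shNC. For these 3 the groups overlapped, with changes of 0.020 ± 0.051 (SE), 0.016 ± 0.051 (SE) and 0.057 ± 0.065 (SE) (limma adjusted p = 0.866, 0.892 and 0.685), and the signs of DDX58 and DDX60 turned under quantile normalization and without shNC replicate 2.

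The ISG15 system couples the ubiquitin-like protein ISG15 to other proteins. ISG15 itself stood at 55.4, 60.7 and 56.3 FPKM in shPAK5 replicates 1 to 3, against 59.4, 60.3 and 67.7 FPKM in shNC replicates 1 to 3. Only shPAK5 replicate 2 reached into the shNC range, and the change of -0.12 ± 0.061 (SE), with an interval of -0.26 to 0.022, did not pass (limma adjusted p = 0.361). USP18, which removes ISG15 and also blocks signalling at IFNAR2, stood at 7.14, 7.58 and 6.97 FPKM in shPAK5, against 7.02, 8.28 and 7.67 FPKM in shNC, and its groups overlapped (change -0.071 ± 0.066 (SE), limma adjusted p = 0.610). Of the 50-base words in its transcripts, 23.4% also occur in transcripts of other genes, nearly all in the copy USP41, so part of its reads is uncertain. HERC5, the ligase that attaches ISG15 in human cells, had only 23 to 36 reads per library, at 0.361 to 0.434 FPKM in shPAK5 and 0.290 to 0.431 FPKM in shNC. Its relative HERC6, on the same chromosome, stood higher at 2.27, 2.40 and 2.48 FPKM in shPAK5, against 2.71, 2.15 and 2.49 FPKM in shNC (change -0.024 ± 0.079 (SE), limma adjusted p = 0.899).

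The IFIT proteins bind viral RNA and block its translation, and their genes form a cluster on chromosome 10. IFIT5, from 89414586 to 89421001 (GRCh38), had the largest positive change among the tested members. It stood at 3.75, 2.83 and 3.17 FPKM in shPAK5 replicates 1 to 3, against 2.67, 2.72 and 2.20 FPKM in shNC replicates 1 to 3. The shPAK5 libraries all lay above the shNC libraries, with replicate 1 highest and replicate 2 only just above. The means were 3.25 ± 0.466 FPKM in shPAK5 and 2.53 ± 0.287 FPKM in shNC (SD, n = 3 each), a ratio of 1.28, and the change of 0.27 ± 0.099 (SE), with an interval of 0.037 to 0.49, did not pass over all genes (limma adjusted p = 0.252). In limma-voom the change was 0.36 ± 0.13 (SE), also without passing (adjusted p = 0.155, with 1.13% of all tested genes called).

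The other 3 genes of the cluster had negative estimates that did not pass, and their groups overlapped. IFIT1, which recognises RNA without a mature cap, stood at 4.05, 4.11 and 4.05 FPKM in shPAK5, against 4.42, 3.93 and 4.05 FPKM in shNC, with the 3 shPAK5 values nearly equal. IFIT2, which works in complexes with the other IFIT proteins, stood at 3.76, 3.47 and 3.31 FPKM in shPAK5, against 3.53, 4.43 and 3.45 FPKM in shNC, where shNC replicate 2 alone was high. IFIT3, a partner that stabilises IFIT1, stood at 8.72, 7.12 and 6.45 FPKM in shPAK5, against 7.75, 8.96 and 8.32 FPKM in shNC. In IFIT3 shPAK5 replicate 1 was highest and replicate 3 lowest of that group. The changes were -0.016 ± 0.059 (SE) for IFIT1, -0.085 ± 0.089 (SE) for IFIT2 and -0.16 ± 0.10 (SE) for IFIT3 (limma adjusted p = 0.908, 0.649 and 0.456).

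The IFITM proteins sit in membranes and hinder the fusion of entering viruses. Their 3 genes lie close together on chromosome 11 and were each lower on average in shPAK5, though none passed. IFITM2, from 307631 to 315272 (GRCh38), stood at 67.9, 74.1 and 71.7 FPKM in shPAK5 replicates 1 to 3, against 74.1, 79.0 and 82.3 FPKM in shNC replicates 1 to 3. The groups did not overlap, but shPAK5 replicate 2 and shNC replicate 1 nearly met. The change was -0.14 ± 0.052 (SE), with an interval of -0.26 to -0.017 (limma adjusted p = 0.256), and -0.18 ± 0.045 (SE) without shNC replicate 1 (limma adjusted p = 0.0585). IFITM1 stood at 2.35, 2.35 and 2.21 FPKM in shPAK5 replicates 1 to 3, against 2.48, 3.20 and 2.61 FPKM in shNC replicates 1 to 3. All shPAK5 values lay below the shNC values, on only 36 to 58 reads per library. Its change of -0.18 ± 0.085 (SE) was the largest negative one (limma adjusted p = 0.318), with -0.25 ± 0.21 (SE) in limma-voom (adjusted p = 0.549). IFITM3, the member best known for restricting influenza virus, stood at 11.6, 14.2 and 12.6 FPKM in shPAK5, against 12.1, 16.1 and 14.0 FPKM in shNC, with overlapping groups and a change of -0.13 ± 0.11 (SE) (limma adjusted p = 0.569). With a library left out that change ran from -0.22, without shNC replicate 1, to -0.029, without shNC replicate 2.

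The 3 IFITM values are not independent readings. Of the 50-base words in their transcripts, 32.0% of those of IFITM1, 34.1% of those of IFITM2 and 17.4% of those of IFITM3 also occur in transcripts of other genes, mostly of each other, and exons of IFITM1 and IFITM2 share 351 bases on the same strand. IFITM3 also shares 21.3% of its exonic bases with AC136475.5 on the other strand, which had 12 reads over the 6 libraries. The order of levels, IFITM2 above IFITM3 above IFITM1, held in each library, and the lowest IFITM2 value, 67.9 FPKM, exceeded the highest IFITM3 value, 16.1 FPKM.

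**Figure D4:**
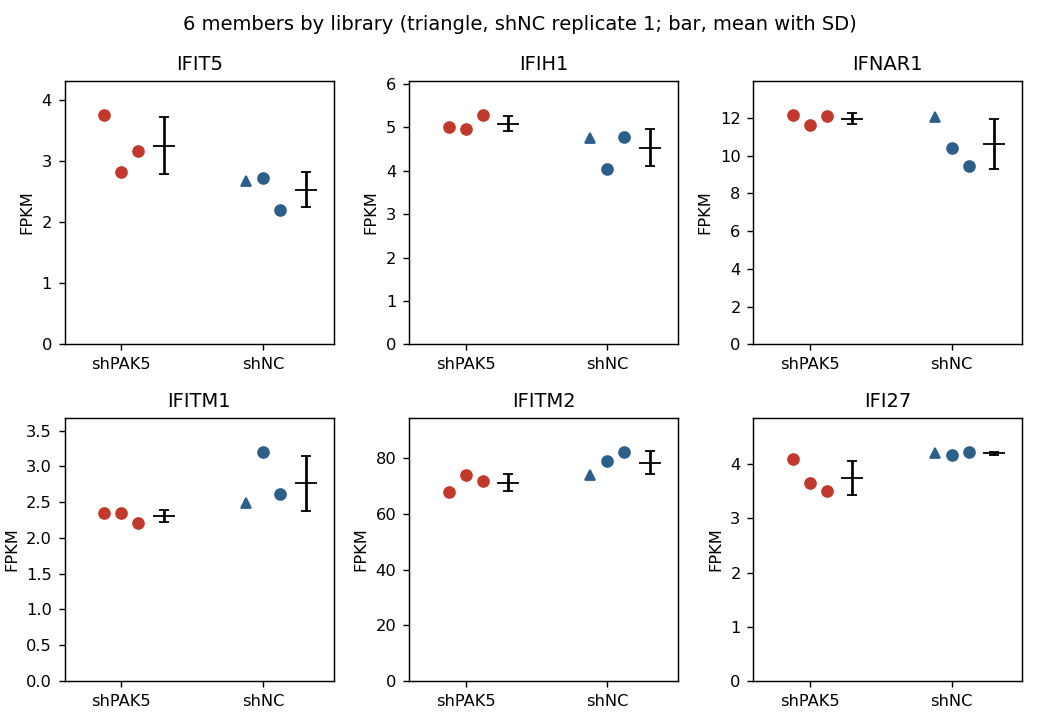
FPKM in each library (y axis, from 0) for IFIT5, IFIH1, IFNAR1, IFITM1, IFITM2 and IFI27, with shPAK5 left of shNC, a triangle for shNC replicate 1 and a bar for the mean with SD of 3 libraries. In IFNAR1 the triangle, at 12 FPKM, sits at the shPAK5 level, while in the other 5 genes the groups do not overlap.

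The 9 genes of effector proteins that act on viruses directly covered the whole range of levels. BST2, or tetherin, which holds budding virus at the cell surface and lies on chromosome 19 from 17402939 to 17405648 (GRCh38), was the most abundant member. It stood at 191, 189 and 190.3 FPKM in shPAK5 replicates 1 to 3, against 196, 189 and 190.3 FPKM in shNC replicates 1 to 3. The values differed by a few FPKM across all 6 libraries, and the change of -0.011 ± 0.033 (SE) had the narrowest interval of the members, -0.088 to 0.065 (limma adjusted p = 0.883). SAMD9, a growth-limiting factor that blocks poxviruses, stood at 8.11, 8.16 and 8.41 FPKM in shPAK5, against 8.58, 7.13 and 7.83 FPKM in shNC, and its neighbour and relative SAMD9L at 2.37, 2.52 and 2.05 FPKM in shPAK5, against 2.12, 2.09 and 2.24 FPKM in shNC. ISG20, an exonuclease, stood at 2.16, 2.66 and 2.55 FPKM in shPAK5, against 2.47, 2.35 and 2.86 FPKM in shNC. The groups overlapped in all 3, with changes of 0.064 ± 0.067 (SE), 0.072 ± 0.076 (SE) and -0.042 ± 0.087 (SE) (limma adjusted p = 0.648, 0.655 and 0.829).

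The remaining 5 effectors were near the limit of detection. MX1, a GTPase that blocks influenza virus, had 10 to 26 reads per library at 0.0769 to 0.166 FPKM in shPAK5 and 0.0836 to 0.139 FPKM in shNC. MX2, its relative active against HIV, had 5 to 10 reads per library. RSAD2, or viperin, which makes a chain-terminating nucleotide, had 13, 12 and 6 reads in shPAK5 libraries, against 17, 14 and 17 in shNC libraries. The counts came close, at 13 reads in shPAK5 against 14 in shNC, and the FPKM values of the groups did not overlap. The ratio of the RSAD2 means was 0.646, on 31 reads in shPAK5 and 48 in shNC, a change that the log2(FPKM + 1) scale understates. With no filter on low values, when none of the 12 members below 1 FPKM was called, against 0.0266% of all genes, its change was -0.086 ± 0.038 (SE) without passing (limma adjusted p = 0.540). CMPK2, a nucleotide kinase and neighbour of RSAD2, had 3 reads over the 6 libraries, 1 in shPAK5 and 2 in shNC. TRIM22, a ubiquitin ligase, had 4 reads, 3 in shPAK5 and 1 in shNC, and 12.1% of its 50-base words also occur in transcripts of other genes. A library with 0 reads allows up to 3 reads, or 0.0462 FPKM for CMPK2 and 0.0330 FPKM for TRIM22 at the shallowest depth, for counting error only, so no fold is given for either.

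PARP9 and PARP14, members of the ADP-ribosyltransferase family that regulate the interferon response, lie near each other on chromosome 3, and neither passed. PARP9 stood at 3.72, 3.42 and 3.53 FPKM in shPAK5, against 3.43, 3.27 and 3.79 FPKM in shNC, and PARP14 at 6.49, 6.06 and 6.02 FPKM in shPAK5, against 6.14, 6.0 and 5.53 FPKM in shNC. Both pairs of groups overlapped, with changes of 0.020 ± 0.067 (SE) and 0.062 ± 0.058 (SE) (limma adjusted p = 0.900 and 0.614). Of the guanylate-binding proteins, large GTPases that coat pathogens, GBP2 stood at 5.37, 5.94 and 5.74 FPKM in shPAK5, against 5.15, 5.67 and 5.31 FPKM in shNC, with a change of 0.069 ± 0.059 (SE) (limma adjusted p = 0.578). Of their 50-base words, 9.62% in GBP1 and 10.2% in GBP2 also occur in transcripts of other genes. GBP1 lay below the limit for testing at 0.916, 1.03 and 1.09 FPKM in shPAK5, against 0.765, 0.573 and 0.890 FPKM in shNC, a ratio of means of 1.36 on 252 reads over the 3 shPAK5 libraries and 189 over the 3 shNC libraries. Its shPAK5 values all lay above its shNC values, and with no filter on low values the change was 0.21 ± 0.096 (SE) without passing (limma adjusted p = 0.548). GBP1 and RSAD2 were the only 2 of the 12 members below 1 FPKM whose groups did not overlap. The share over all genes below 1 FPKM was not taken, so neither is read as a result.

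The last 7 members are strongly induced genes of less settled or varied function. IFI6, a small protein of the endoplasmic reticulum and mitochondria, stood at 62.3, 63.7 and 60.1 FPKM in shPAK5, against 62.3, 59.3 and 69.5 FPKM in shNC, and IFI35, a cytosolic leucine-zipper protein, at 15, 16.0 and 17.1 FPKM in shPAK5, against 15.1, 17.4 and 16.4 FPKM in shNC. IFI44, a cytosolic protein with antiproliferative activity, stood at 8.79, 8.87 and 10.2 FPKM in shPAK5, against 9.29, 7.98 and 8.86 FPKM in shNC. The groups of these 3 overlapped, with changes of -0.035 ± 0.060 (SE), -0.023 ± 0.067 (SE) and 0.084 ± 0.076 (SE) (limma adjusted p = 0.794, 0.885 and 0.592). IFI27, a small mitochondrial and nuclear membrane protein, stood at 4.09, 3.65 and 3.5 FPKM in shPAK5, against 4.21, 4.17 and 4.23 FPKM in shNC. All 3 shPAK5 values lay below the tightly grouped shNC values, and the change of -0.13 ± 0.064 (SE), with an interval of -0.28 to 0.015, did not pass (limma adjusted p = 0.335). The shNC spread of 0.725% (coefficient of variation) was smaller than the 5.81% that counting alone gives at its read number. EPSTI1, known from breast cancer epithelium beside stroma, had 20 to 40 reads per library, and XAF1, a pro-apoptotic partner of XIAP, had 1 to 9, with 38.3% of its exonic bases under PRAL on the other strand. IFI44L, the neighbour and relative of IFI44, had 9 to 17 reads per library at 0.0582 to 0.0923 FPKM in shPAK5 and 0.0668 to 0.0989 FPKM in shNC, whereas IFI44 averaged 9.01 FPKM over the 6 libraries.

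The tested members had no common direction in a library, with positive and negative deviations in each. The value of each member was set against its own mean over the 6 libraries, and the median deviation was 0.0011, 0.0051 and -0.0033 on the log2 scale in shPAK5 replicates 1 to 3, against -0.011, -0.046 and 0.021 in shNC replicates 1 to 3. The shNC libraries lay on both sides of the shPAK5 libraries, shNC replicate 2 lowest and shNC replicate 3 highest. The median coefficient of variation of the tested members was 4.40% in shPAK5 and 7.29% in shNC, beside 4.80% and 5.04% from counting alone. Single members spread more, such as IFIT3 with 15.7% in shPAK5 against 5.50% from counting and IRF7 with 14.9% against 6.48%. Over all 13710 genes compared, chi-square values divided by their degrees of freedom lay at 2.32 to 2.82 between shPAK5 libraries and 3.22 to 9.31 between shNC libraries, so the wider shNC spread was not a trait of the members alone.

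**Figure D5:**
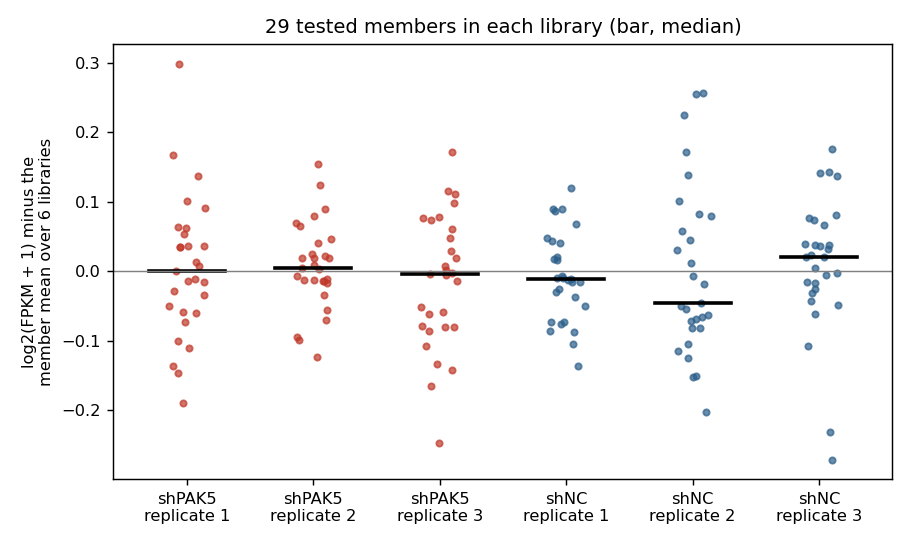
Deviation of the 29 tested members from their own mean over the 6 libraries, log2(FPKM + 1), by library, 1 point per member and a bar for the median. The medians run from -0.046 in shNC replicate 2 to 0.021 in shNC replicate 3, with the 3 shPAK5 medians between them.

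The rest of the pathway was read from lists. For the counts of these lists, 17% of all tested genes had an unadjusted p under 0.05 in limma. The share of all tested genes called was 0.116% in limma and 1.13% in limma-voom. Of 21 interferon genes, 15 had 0 reads in all 6 libraries, among them IFNB1, and none reached 1 FPKM. The most abundant were IFNE, an epithelial type I interferon, with 35 reads over the 6 libraries, IFNL1, a type III interferon, with 8 and IFNA1 with 3. Of 13 genes of the JAK-STAT cascade and other interferon receptors, 10 were tested and none passed in limma, with 1 at an unadjusted p under 0.05 and none called in limma-voom (median change 0.039). The most abundant were the phosphatase gene PTPN11 at 39.6 ± 0.708 FPKM in shPAK5 and 38.1 ± 2.18 FPKM in shNC and the kinase gene JAK1 at 23.7 ± 0.470 FPKM in shPAK5 and 23.0 ± 0.652 FPKM in shNC (SD, n = 3 each). None of 14 tested genes of the list of sensing adaptors and kinases passed, with 4 at an unadjusted p under 0.05 in limma and none called in limma-voom (median change -0.0017), with the RNA editing enzyme gene ADAR at 40.5 ± 0.590 FPKM in shPAK5 and 43.8 ± 1.67 FPKM in shNC, the RIG-I adaptor gene MAVS at 16.6 ± 0.516 FPKM in shPAK5 and 16.4 ± 0.740 FPKM in shNC and the factor gene IRF3 at 15.3 ± 1.47 FPKM in shPAK5 and 17.3 ± 0.525 FPKM in shNC.

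None of 28 tested genes among 39 further interferon-stimulated genes passed either, and none was called in limma-voom (median change 0.024). An unadjusted p under 0.05 in limma was found for 3 of the 28, against 17% of all tested genes. The most abundant were LGALS3BP, a secreted glycoprotein, at 266 ± 2.81 FPKM in shPAK5 and 238 ± 9.27 FPKM in shNC, the membrane protein gene LY6E at 228 ± 3.17 FPKM in shPAK5 and 227 ± 13.3 FPKM in shNC and TRIM14, a MAVS-binding protein, at 22.4 ± 0.900 FPKM in shPAK5 and 20.7 ± 0.516 FPKM in shNC (SD, n = 3 each). In the OAS family with RNase L, 4 genes were tested (median change -0.092). An unadjusted p under 0.05 in limma was found for 2 of them, against 17% of all tested genes. OASL was the single gene called in limma, lower in shPAK5, at 11.8 ± 0.379 FPKM in shPAK5 and 15.5 ± 0.454 FPKM in shNC (change -0.37 ± 0.048 (SE), limma adjusted p = 0.0498), against 0.0267% of all tested genes in that direction. The call was lost with both smaller pseudocounts, with no filter, without a variance trend, with the replicate block and with any library other than shNC replicate 1 left out, and OASL was also chosen with its result known. OAS1 was at 32.6 ± 1.74 FPKM in shPAK5 and 32.8 ± 1.48 FPKM in shNC and OAS3 at 19.4 ± 0.398 FPKM in shPAK5 and 22.1 ± 1.75 FPKM in shNC. In the fit without shNC replicate 1, OASL, TYK2 and OAS3 were called lower and, beside the 4 markers named with IFNAR1, EIF2AK2 and LGALS3BP higher, with changes of -0.39, -0.34, -0.24, 0.25 and 0.13 (limma adjusted p from 0.0287 to 0.0474). In that fit 2.81% of all tested genes were called lower. TYK2, EIF2AK2 and CDH1 were named after their values were seen.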

How the data were processed

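Gene expression was measured by RNA sequencing, with libraries made by the NEBNext Ultra RNA kit per the labels, in 3 shPAK5 and 3 shNC libraries, grouped and numbered by their titles. The authors deposited FPKM per gene with gene lengths, per the file headers. No aligner, counter or strand setting is given in the sources used here. The submitters' processing notes name the build mm10, but all 58735 gene IDs are human and match GENCODE 29 (GRCh38), with 58724 equal exonic lengths. FPKM times length gave whole multiples of 1 step per library, within 0.001 relative to the value, for 100% of values above 0, which gave the reads. The library totals that the values imply stood in the same ratio to the median-of-ratios size factors of these reads in all 6 libraries, so the values follow size factors and not total depth.

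Groups were compared in limma 3.58.1, run in R 4.3.3 (lmFit, eBayes with trend) on log2(FPKM + 1) for the 11237 genes averaging 1 FPKM or more, with Benjamini-Hochberg adjustment over all of them at 0.05. limma-voom used the recovered reads with median-of-ratios scaling. Alternatives were 2 pseudocounts, 2 filters, 2 scalings, another variance model, a replicate block, protein-coding genes only and each library left out. Chi-square tests found all libraries of a group to differ beyond read sampling. An exact permutation test of 3 against 3 cannot go below p = 0.1 and was not used. Promoter windows are RefSeq (GRCh38.p14). Exon overlaps and 50-base words were taken from GENCODE 29. All 41 members are named, with the 3 most abundant genes of each other pathway list and any that passed, except 1 item that is not reported here. The members were matched by symbol, and members and lists alike were chosen with earlier results of these data known. Figures were drawn with matplotlib 3.10.9.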

Additional observations from a re-analysis of the deposited data

How the results depend on the processing

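No member was called in the 10 alternatives that kept all libraries. With a library left out, the count of called members ran from 0 to 1 (IFNAR1, without shNC replicate 1) and the median member change from -0.0094 to 0.023 on the log2 scale. Over all tested genes the count of 13 became 7 with no filter, 31 at a mean of at least 5 FPKM, 20 under quantile normalization, 127 in limma-voom, 64 over protein-coding genes only, and 2 to 937 with a library left out, highest without shNC replicate 1. Called genes of the other lists, 1 with all libraries (OASL), came to 0 with both smaller pseudocounts, with no filter and without a variance trend, to 3 in limma-voom (OASL, EPCAM and CDH1), and to 0 to 9 with a library left out. The signs of 11 members with small changes turned in some alternative. Under quantile normalization DDX58 came to -0.00023, DDX60 to -0.00077 and BST2 to 0.0014, and with a library left out the changes ran from -0.16 to 0.0023 for IRF7, -0.0094 to 0.035 for DDX58, -0.0027 to 0.044 for DDX60, -0.088 to 0.030 for HERC6, -0.045 to 0.024 for IFIT1, -0.14 to 0.0063 for IFIT2, -0.023 to 0.0057 for BST2, -0.085 to 0.021 for ISG20, -0.016 to 0.066 for PARP9, -0.084 to 0.028 for IFI6 and -0.072 to 0.022 for IFI35. The members that kept their sign ran from 0.089 to 0.25 for IFNAR1, 0.022 to 0.084 for STAT2, 0.039 to 0.14 for IRF1, 0.076 to 0.18 for IFIH1, 0.0084 to 0.10 for IFI16, -0.16 to -0.060 for ISG15, -0.12 to -0.019 for USP18, -0.26 to -0.071 for IFIT3, 0.18 to 0.34 for IFIT5, -0.24 to -0.10 for IFITM1, -0.18 to -0.10 for IFITM2, -0.22 to -0.029 for IFITM3, 0.0046 to 0.12 for SAMD9, 0.028 to 0.13 for SAMD9L, 0.023 to 0.088 for PARP14, 0.041 to 0.10 for GBP2, -0.19 to -0.096 for IFI27 and 0.020 to 0.13 for IFI44. The cause was not tested. Same-numbered libraries did not deviate together over all tested genes (correlations of 0.065, -0.024 and 0.009 for numbers 1 to 3). With 3 libraries per group these values cannot show whether same-numbered libraries were prepared together. The main fit did not treat the numbers as pairs. With the replicate block 2 genes passed, with 0 of the lists and 0 members, and the median member change was -0.011. Depth limits the 12 members under 1 FPKM, which were tested only with no filter. The intervals on log2(FPKM + 1) are narrower than on a ratio scale for members of few FPKM.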
